A study of Mus musculus with 19 samples.

Results

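The cells described here were a secretory population of the mouse colon, found in 1 droplet single-cell RNA library taken on day 8 of recovery, after toxin had removed stem cells that express Lgr5. They were chosen by measured values. A kept barcode had at least 6780 UMIs (unique molecular identifiers, each counting 1 captured transcript), at least 500 genes and at most 20% of UMIs in mitochondrial genes. The secretory share was the percent of a cell's UMIs in 8 genes (Reg4, Spink4, Agr2, Muc2, Tff3, Fcgbp, Clca1 and Zg16), and a member had a secretory share of at least 4% and more UMIs of Ccl6 and Cma1 together than of Nov. Of 3253 kept barcodes, 792 met the rule (24.3%, exact 95% binomial interval 22.9 to 25.9%), 440 had a share from 1% to under 4%, and 2020 were under 1%. They are called the Ccl6/Cma1 secretory cells below, and the 2020 cells under 1% the low-share cells. Only 1 other kept cell reached 4%, so a comparison with other secretory cells of that share could not be made; it had 14253 UMIs, of which 16 were Ccl6 and 20 Nov. The levels of the 8 genes and of Ccl6, Cma1 and Nov, and of every other gene in these cells, are given as a description without a test, because the same cells' UMIs chose the members.

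The day 8 library came from mice of a mixed C57BL/6 and 129/Sv background that carried Ascl2(mCh), an mCherry reporter at the gene of the stem cell transcription factor Ascl2, and Lgr5Dtr-Egfp, which puts the diphtheria toxin receptor and GFP under Lgr5. There diphtheria toxin (50 ug/kg, injected into the peritoneum 4 times, every other day) killed the cells that expressed Lgr5, and the colon cells loaded had mCherry and lacked GFP. Bulk RNA libraries of the same series were used for levels that the rule did not use. They were 2 of regenerating cells of that genotype and treatment, 2 of Ascl2 knockout stem cells (Ascl2Fl/Fl; Lgr5EGFP-Cre, with tamoxifen at 2 mg on the first 2 days and 1 mg on the next) and 3 of wild-type stem cells (Ascl2(mCh); Lgr5Dtr-Egfp), all of the mixed background and sorted on mCherry or GFP, and 8 of Epcam-sorted hindgut from CD1 embryos, 2 each at E11, E12, E14 and E16. The Cre and the reporters act only where Lgr5 or Ascl2 is expressed, allele and sort differ between the adult groups together with genotype, and the labels do not name the mice behind an adult library, so p-values measure the spread between these libraries.

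Deep crypt secretory cells sit between the stem cells at the base of colonic crypts, where they are regarded as the colon's counterpart of the Paneth cells of the small intestine. They are known for the lectin Reg4, the receptor tyrosine kinase Kit and the surface protein Cd24a, and they supply stem cells with Notch ligands and epidermal growth factor. Like goblet cells, which secrete the mucin gel of the colon, they form when Notch signalling is low and the transcription factor Atoh1 is active. Ccl6 is a chemokine that is best known from myeloid cells of the mouse, and Cma1 is a chymase, a serine protease best known from mast cells. Nov, also named Ccn3, is a secreted matricellular protein.

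Promoter sequence is shown for Ccl6 and Cma1, which define the cells, for the deep crypt marker Reg4, and for Sval1, a gene outside the rule that was high in nearly every member. Each line is a RefSeq promoter window of 250 bases (GRCm38.p6), 5′ to 3′ on the gene's strand. For Ccl6, Cma1 and Sval1 it is the 250 bases before the gene's start. The Reg4 window runs past the gene's listed start at position 98222138, so its last bases lie within the gene. The windows lie at chr11:83593088-83593337 (minus strand, Ccl6), chr14:55944676-55944925 (minus strand, Cma1), chr3:98221906-98222155 (plus strand, Reg4) and chr6:41951378-41951627 (plus strand, Sval1). Capitals mark motifs found by a search of both strands for the E-boxes and of the gene's strand alone for the TATA box. The symmetric E-box marked was CAGCTG, and E-boxes are the site class of basic helix-loop-helix factors such as Atoh1 and Ascl2. E-boxes have the letters CANNTG (N is any base), and their other forms were not marked. The asymmetric E-box marked was CAGATG, which on the other strand reads as its reverse complement, here CATCTG. The TATA box was searched as TATAAA. No marked match overlaps another.
Ccl6: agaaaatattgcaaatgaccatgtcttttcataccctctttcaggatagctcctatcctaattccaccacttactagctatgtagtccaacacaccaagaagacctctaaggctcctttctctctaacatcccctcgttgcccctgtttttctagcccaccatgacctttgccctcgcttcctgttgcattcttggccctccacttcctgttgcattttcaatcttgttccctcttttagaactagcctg
Cma1: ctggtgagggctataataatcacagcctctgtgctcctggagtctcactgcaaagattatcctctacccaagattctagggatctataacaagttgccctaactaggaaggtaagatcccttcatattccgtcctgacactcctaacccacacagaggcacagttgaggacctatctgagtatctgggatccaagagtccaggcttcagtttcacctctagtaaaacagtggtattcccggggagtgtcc
Reg4: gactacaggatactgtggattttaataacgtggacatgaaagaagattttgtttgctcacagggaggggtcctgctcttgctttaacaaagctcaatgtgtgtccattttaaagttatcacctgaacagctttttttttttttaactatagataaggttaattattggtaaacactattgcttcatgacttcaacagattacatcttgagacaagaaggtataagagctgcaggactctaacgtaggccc
Sval1: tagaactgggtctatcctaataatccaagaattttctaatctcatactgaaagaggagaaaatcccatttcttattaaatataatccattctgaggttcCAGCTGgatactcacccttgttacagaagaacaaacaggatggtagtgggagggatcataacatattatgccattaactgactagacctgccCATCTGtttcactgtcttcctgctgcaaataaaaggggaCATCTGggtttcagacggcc
The Ccl6, Cma1 and Reg4 windows held none of the marked forms, which does not mean that they lack E-boxes of other forms. The Sval1 window held 1 symmetric and 2 asymmetric E-boxes of the marked forms. Among all 27018 RefSeq windows of this length, 12.8% held the symmetric E-box, 14.5% the asymmetric E-box and 8.12% the TATA box. A window was at hand for 32 of the 50 genes outside the rule with the largest folds in the cells among those at 100 CPM or more. Of those 32, 15.6% held the symmetric E-box, 21.9% the asymmetric E-box and 6.25% the TATA box. A further symmetric form, CACGTG, was counted but not marked, and was in 6.05% of all windows and 9.38% of the 32. A match is a description of letters and shows no binding.

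The cells held fewer UMIs than the rest of the library. A Ccl6/Cma1 secretory cell had a median of 13054 UMIs and 3348 genes, against 25496 UMIs and 4894.5 genes in low-share cells, and the mitochondrial share was alike, at 5.11% and 5.15%. The secretory share had a median of 6.91% (4.02 to 35.3%) in the members, against 0.0782% in low-share cells. Free RNA was part of this library, since 71722 barcodes of 10 to 100 UMIs held 1.42% of their UMIs in the 8 genes, a share above the 0.158% of the summed low-share cells. Because depth differed, shares of cells with a UMI are given after each cell was thinned to 6780 UMIs, and levels are CPM (UMIs of a gene in the summed cells, scaled to a common total) with exact 95% Poisson intervals; both kinds of interval cover counting error only. The library had no replicate, so there is no test between cell groups. A caller of doublets marked 1 of 3253 cells and no member, which is too few to show that it worked, and 102 members exceeded 20000 UMIs.

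**Figure D1:**
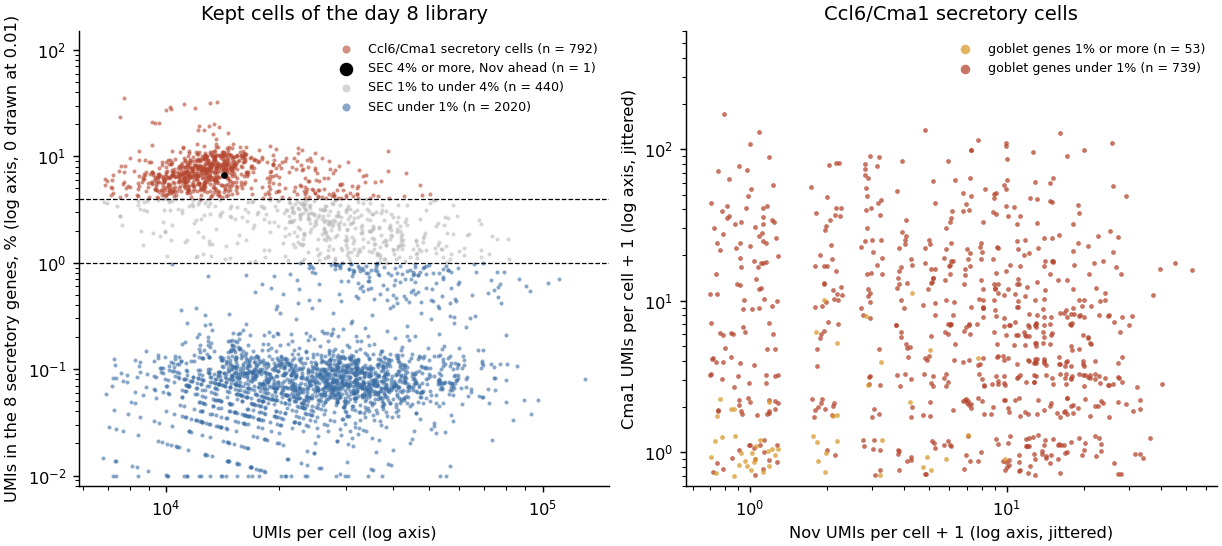
Left, UMIs per cell against the secretory share in percent, both on log axes, 1 point per kept cell, with dashed lines at 1% and 4% (SEC in the legend is the secretory share). Right, Nov against Cma1 UMIs (plus 1, jittered) in the 792 Ccl6/Cma1 secretory cells, coloured by whether 4 goblet genes took 1% of UMIs or more. The 792 cells lie mostly at lower UMI counts than the low-share cells, and the 53 goblet-rich cells lie at low Nov and low Cma1.

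All 792 cells had a Ccl6 UMI, and Nov, like Ccl6 and Cma1, was higher in the members as a group. Ccl6 stood at 4038 CPM (4001 to 4074) in the Ccl6/Cma1 secretory cells, against 64.2 CPM (62.2 to 66.4) in low-share cells, which is 62.9-fold. Cma1 stood at 897 CPM (880 to 915), against 3.07 CPM (2.63 to 3.56), and Nov at 553 CPM (539.6 to 567), against 1.18 CPM (0.917 to 1.502). After thinning, a Ccl6 UMI was present in 99.7% of the members and 15.7% of low-share cells, a Cma1 UMI in 72.2% and 1.53%, and a Nov UMI in 74.0% and 0.792%. Most members thus held all 3 genes. The barcodes of 10 to 100 UMIs held 816 CPM of Ccl6, 111 of Cma1 and 65.2 of Nov, below the members and above the low-share cells. The combined Ccl6 and Cma1 count per member had a median of 66 UMIs (2 to 292) and the Nov count a median of 6 (0 to 52). Cma1 and Nov were both present in 536 members, 145 had no Cma1 and 150 no Nov. The lead of Ccl6 and Cma1 over Nov that the rule asks for was 5 UMIs or less in only 7 members, and the condition removed 1 cell of 793. Read the other way, 478 of the 640 kept cells with at least 3 Cma1 UMIs were members, 151 had an intermediate share and 11 a low one. For Nov it was 529 of 661, with 128 and 3.

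Of the 8 genes of the secretory share, some were in nearly every member and others had most of their UMIs in few cells. Reg4 stood at 9854 CPM in the Ccl6/Cma1 secretory cells, against 101 CPM in low-share cells (97.2-fold). Spink4, a peptide of the Kazal inhibitor family, stood at 33160 against 369 CPM, Agr2, a disulfide isomerase needed for mucin folding, at 13423 against 901 CPM, and the gel-forming mucin Muc2 at 9715 against 61.7 CPM. After thinning, UMIs of Spink4, Agr2 and Muc2 were in 100% of members. The lectin Zg16 stood at 4720 against 15.7 CPM, yet only 14.3% of thinned members and 6.29% of thinned low-share cells had a UMI of it, and 14 cells held 50% of its UMIs among the members. Clca1, a secreted metalloprotease of goblet mucus, was in 7.07% and 1.14% of thinned cells (419 against 2.72 CPM, 9 cells holding 50%). Tff3, a trefoil peptide, was in 34.2% and 13.0%, and the mucus protein Fcgbp in 37.2% and 5.59%, with 22 and 20 cells holding 50% of their UMIs among the members.

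The cut at 4% fell within a continuous range. The 66 members from 4% to under 4.5% had 2503 CPM of Ccl6, 474 of Cma1, 298 of Nov and 5692 of Reg4, against 2335, 425, 196 and 4599 CPM in the 54 cells from 3.5% to under 4%. Members at a share of 8% or more (265 cells) had 4413 CPM of Ccl6, 828 of Cma1, 767 of Nov and 12972 of Reg4. The 440 cells between 1% and 4% stood at 1340 CPM of Ccl6, 173 of Cma1 and 95.1 of Nov, and had a median of 26867.5 UMIs. Mki67, a gene of dividing cells, was at 153 CPM just inside the cut, 107 just outside it and 16.7 at 8% or more.

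Over all genes outside duplicated symbols, 3243 reached 50 CPM in either group; 368 (11.3%) were at least 2-fold higher in the Ccl6/Cma1 secretory cells than in low-share cells, and 379 (11.7%) at least 2-fold lower. The median gene stood at -0.17 on the log2 scale, and cytosolic ribosomal protein genes took 19.7% of UMIs in the members and 28.1% in low-share cells. The 11 genes of the rule took so many UMIs that leaving them out of the totals moved the median to -0.03 and gave 446 higher and 312 lower genes, a split of 58.8% higher against 49.3%. The members' lists below are read against these shares.

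Of the deep crypt secretory list, 6 of 9 genes reached 50 CPM and all 6 were higher, 3 of them genes of the rule. Outside the rule, Ramp1, a subunit of the calcitonin gene-related peptide receptor, stood at 1334 CPM in the Ccl6/Cma1 secretory cells, against 28.4 CPM in low-share cells (46.9-fold), with a UMI in 99.1% and 8.51% of thinned cells. Kit stood at 103 CPM (97.4 to 109), against 4.29 CPM (3.77 to 4.86), and Cd24a at 842 against 217 CPM. The other 3 genes of the list, the Notch ligands Dll1 and Dll4 and the growth factor Egf, stayed under 50 CPM. Dll1 was at 14.8 CPM (12.6 to 17.1) against 3.60 (3.12 to 4.13), Dll4 at 18.6 (16.2 to 21.2) against 1.84 (1.5002 to 2.22), and Egf at 7.16 (5.71 to 8.88) against 0.706 (0.505 to 0.962). The 6 listed genes outside the rule were thus all at a higher level in the members. Low-share cells were chosen for few secretory transcripts, and goblet mucus genes were higher in the members as well, so this comparison does not tell a deep crypt from a goblet identity.

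**Figure D2:**
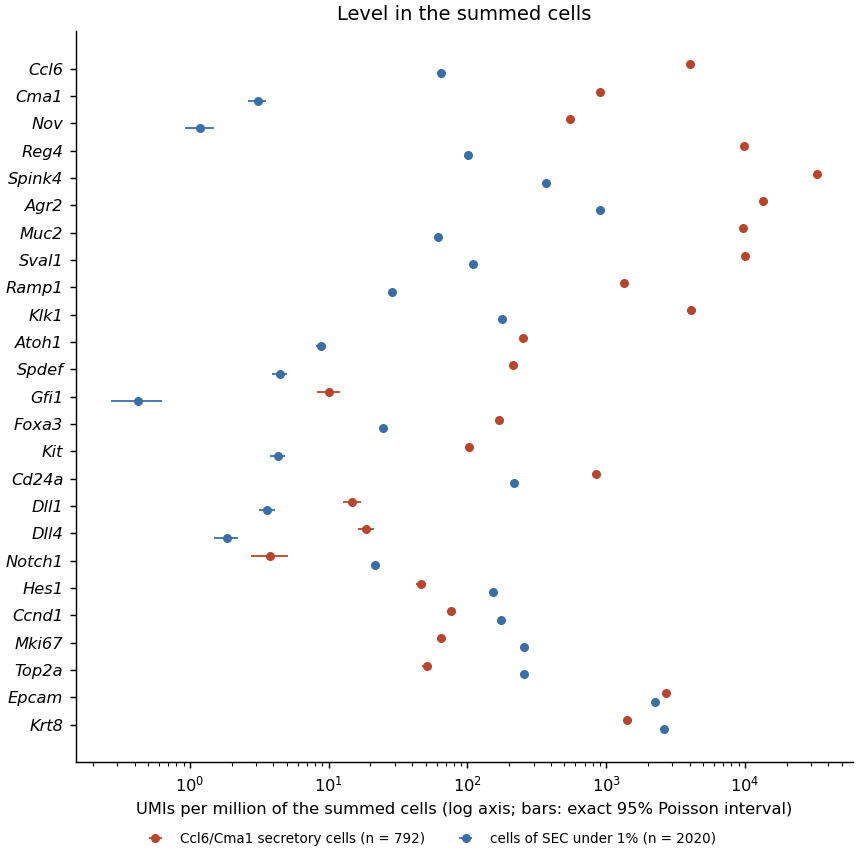
Level of 25 genes in CPM of the summed cells (log axis) in the 792 Ccl6/Cma1 secretory cells and the 2020 low-share cells; bars are exact 95% Poisson intervals, most of them narrower than the point. Markers and secretory transcription factors lie to the right in the members, the cell cycle genes Mki67, Top2a and Ccnd1 to the left, and Epcam at a like level in both.

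Among the largest folds outside the rule, genes differed in how many members held them. Sval1, a secreted seminal vesicle antigen-like protein, stood at 10074 CPM in the Ccl6/Cma1 secretory cells, against 109 CPM in low-share cells (92.5-fold), with a UMI in 99.7% and 15.99% of thinned cells. Slpi, an inhibitor of leukocyte proteases, stood at 1088 against 9.87 CPM (81.4% and 3.22% of thinned cells), the tryptase Tpsg1 at 239 against 2.60 CPM (74.7% and 1.34%), and Clps, the cofactor of pancreatic lipase, at 204 against 2.86 CPM (56.1% and 0.990%). The kallikrein Klk1 stood at 4064 against 177 CPM. Of the 11 tested genes for proteases and inhibitors, 6 were higher (Cma1 and Spink4 of the rule among them) and 1, the whey-acidic protein family gene Wfdc2, was lower (261 against 1025 CPM). Other large rises were Gm1123 (372 against 3.20 CPM), Rep15, a Rab15 effector (386 against 7.66), the transporter Slc12a8 (202 against 4.33), Hpd of tyrosine breakdown (248 against 5.46), the lipid phosphatase Plpp1 (293 against 8.32) and the chloride channel Best2 (118 against 4.22). A further set had large folds that a few cells carried. Retnlb, a resistin-like antimicrobial protein, stood at 618 against 3.55 CPM, but 9 cells held 5961 of its 7161 UMIs in the members and 509 members had none. Of the 50 genes outside the rule with the largest folds among those at 100 CPM or more, 5 had 50% of their UMIs in 14 cells or fewer, among them Itln1, Ang4, Mptx1 and Spink1.

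Transcription factors of the secretory lineage were higher in the members for 8 of 10 tested genes, with none lower. Atoh1, which commits progenitors to the secretory lineage, stood at 253 CPM (244 to 262) in the Ccl6/Cma1 secretory cells, against 8.83 CPM (8.07 to 9.64) in low-share cells. Spdef, needed for goblet cell maturation, stood at 213 against 4.43 CPM, Creb3l4 at 143 against 5.01, Foxa3 at 168 against 24.7, Creb3l1 at 399 against 100.4, Xbp1, a factor of the unfolded protein response, at 374 against 135, and Klf4 at 617 against 283. Sox9 was at 199 against 132 CPM and did not reach 2-fold. Gfi1, which holds secretory cells from the endocrine fate, was at 10.0 CPM (8.27 to 12.01) against 0.424 CPM (0.271 to 0.630), under the 50 CPM minimum.

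Genes that build mucus went the same way. Of 13 tested goblet mucus genes, 12 were higher and none lower in the summed cells, and 5 of the list are genes of the rule. Some of these rises rested on few members. Among the members, 50% of the UMIs lay in 14 cells for Zg16, 9 for Clca1, 22 for Tff3 and 20 for Fcgbp. For Retnlb, Itln1 and Ang4 it was 2 cells each, so the count does not describe a typical member. Of 22 tested genes of mucin glycosylation, 17 were higher and none lower, among them Galnt7 (568 CPM in the Ccl6/Cma1 secretory cells, 79.1 in low-share cells), Galnt12 (208 and 27.7), St6galnac1, a sialyltransferase of mucin glycans (215 and 25.7), and Gcnt3 (91.0 and 3.87). Of 25 tested genes of protein folding in the endoplasmic reticulum, 12 were higher and none lower, with Kdelr3 at 86.6 and 7.52 CPM and Pdia5 at 186 and 30.4 CPM. The chaperone Hspa5, at 1159 and 654 CPM, did not reach 2-fold. The median log2 difference was 2.03 for glycosylation and 0.98 for folding genes, beside -0.17 for all tested genes. Guca2a, the peptide guanylin of goblet cells and colonocytes, stood at 1064 and 167 CPM.

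Cell cycle genes were lower in the members. None of 11 tested replication genes was higher and 10 were lower, and all 12 tested mitosis genes were lower. Mki67 stood at 64.9 CPM (60.3 to 69.7) in the Ccl6/Cma1 secretory cells, against 257 CPM (253 to 262) in low-share cells, and Top2a at 50.8 against 254 CPM. Ccnd1, the cyclin that drives entry into S phase, stood at 76.6 against 174 CPM, and the antiproliferative gene Btg2 at 927 against 311. Cdkn1a (72.6 against 55.8 CPM) and Cdkn1b (77.4 against 60.4 CPM), inhibitors of cyclin-dependent kinases, did not reach 2-fold. In 40 members (5.05%) the mitosis list took 0.1% of UMIs or more; their median depth was 19395 UMIs, against 12927.5 in the other 752.

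The lists of stem cell and Notch genes took like shares of UMIs in both groups, and their members went in both directions. Crypt base stem genes took 0.0738% of UMIs in the Ccl6/Cma1 secretory cells and 0.0718% in low-share cells, and Notch genes 0.0337% and 0.0345%. Of 3 tested Notch genes, Dlk1 was higher, Hes1 was lower and Hes6 (155 and 116 CPM) was neither. Ascl2 itself stood at 8.11 CPM (6.56 to 9.93) in the Ccl6/Cma1 secretory cells, against 19.7 CPM (18.6 to 20.9) in low-share cells, and Lgr5 at 0.949 CPM (0.474 to 1.70), against 2.44 (2.05 to 2.88); both are below the 50 CPM minimum. Notch1 stood at 3.80 against 21.7 CPM, and its target Hes1 at 46.5 against 153. Dlk1, a non-canonical Notch ligand, stood at 68.2 CPM against 0.477 CPM, but a Dlk1 UMI was in only 17.6% of thinned members. Il11ra1, the interleukin 11 receptor chain, was at 40.4 against 10.3 CPM. Of 4 tested crypt base stem genes, 1 was higher, the ion transporter Slc12a2 (438 against 197 CPM), and 2 were lower.

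The 15 largest falls were taken among genes at 100 CPM or more in low-share cells, so that Pyy, an enteroendocrine peptide at 3.54 CPM in the members and 77.4 CPM in low-share cells, is not among them. They included the defensin Defb45 (9.32 CPM in the Ccl6/Cma1 secretory cells, 134 in low-share cells), Trf, the gene of transferrin (10.4 and 137), the sulfotransferase Sult1a1 (42.7 and 395), the LIM protein Csrp2 (76.9 and 668), the glutathione transferase Mgst1 (51.3 and 425), the monocarboxylate transporter Slc5a8 (18.4 and 138), the water channel Aqp4 (48.9 and 299) and the histone Hist1h1b (58.2 and 454). Reg3b, a bactericidal lectin, stood at 86.3 and 557 CPM, and 1 cell held 50% of its UMIs among the members. Of 14 tested colonocyte genes, 2 were higher (Guca2a and Guca2b) and 6 lower in the summed cells, among them Car1 (43.2 and 164 CPM). Per cell, the colonocyte list without Guca2a took a median of 0.2532% of UMIs in the members and 0.2005% in low-share cells. Its 95th percentile was 0.875% in the members and 3.58% in low-share cells. The low-share sum of this list thus rested in part on a minority of cells, and a typical member did not hold less of it. The fetal-like repair list was split, with Krt7 higher (300.3 and 85.7 CPM), Ly6a lower (256 and 544) and 4 of 8 under 2-fold. Of 10 tested immediate-early genes, Egr1 (554 and 253 CPM) and Dusp1 (309.8 and 149.6) were higher.

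Markers of other cell types bear on Cma1 and Kit, which mast cells share. The other 11 mast cell genes together took 0.000431% of UMIs in the Ccl6/Cma1 secretory cells and 3.88e-05% in low-share cells. Their share was thus higher in the members, though none of the 11 reached 50 CPM in either group. Of the 11, 5 had 0 UMIs in the members (Cpa3, Tpsab1, Fcer1a, Ms4a2 and Il1rl1), and the rest had some. The tryptase Tpsg1, which was higher in the members, was not on this list. The 15 other immune cell genes took 0.0912% of UMIs in the members and 0.218% in low-share cells, nearly all of it Cd74, a chain of antigen presentation that epithelium also makes (910.4 and 2183 CPM), the only 1 of them tested and lower in the members. Ptprc, which defines leukocytes, was at 0.0863 and 0.0353 CPM. The epithelial gene Epcam was at 2690 and 2264 CPM, and none of 10 tested epithelial genes differed 2-fold. No stromal, endothelial, neural, red cell or tuft gene reached 50 CPM in either group. Of the Paneth list, 3 of 3 tested genes were higher (Lyz1, Ang4 and Itln1), but 1 cell held 50% of Lyz1 UMIs among the members and 5 of 10 matched genes, all defensins among them, had 0 UMIs.

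Within the members, a small set stood apart by mature goblet genes. In 53 cells (6.69%) Zg16, Tff3, Fcgbp and Clca1 took 1% of UMIs or more, with 32.2% as the highest. Of the others, 648 members were under 0.1% and 24 lay from 0.5% to under 1%, just below the cut. These 53 cells had 56836 CPM of Zg16, against 33.0 CPM in the other 739, and by the same choice more Clca1 (5001 against 6.68 CPM), Tff3 (13360 against 377) and Fcgbp (7801 against 125). Genes outside the choice that were higher in them were the trypsin inhibitor Spink1 (8866 against 27.8 CPM), the acute-phase gene Saa1 (3163 against 3.86), the keratin of differentiated cells Krt20 (510.4 against 3.57) and the colonocyte carbonic anhydrase Car4 (545 against 1.41). Of the 53, 34 also had 1% of UMIs or more in colonocyte genes.

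The genes that name the population were lower in those 53 cells. Reg4 stood at 497 CPM in the 53 goblet-rich cells, against 10696 CPM in the other 739 members, Cma1 at 57.5 against 973, Nov at 73.2 against 596 and Ccl6 at 1082 against 4303. Kit (40.8 against 109 CPM), Cd24a (152 against 904), Ramp1 (541 against 1406), Atoh1 (114 against 266) and Spdef (74.3 against 226) were lower as well. The phosphatase gene Ptpro had 0 UMIs in the 53 cells, against 125 CPM in the 739, and the tight junction gene Cldn2 was at 9.41 against 279 CPM. Sval1, at 10653 against 10022 CPM, and Muc2, at 6975 against 9962 CPM, differed less than 2-fold. Of 3108 genes at 50 CPM or more in either set, 376 (12.1%) were at least 2-fold higher in the 53 cells and 441 (14.2%) lower. Median depth was 13042 UMIs in the 53 cells and 13064 in the 739. Reg4 and Muc2 are genes of the secretory share that the rule sets a minimum for. The 739 cells, with little Zg16, Tff3, Fcgbp and Clca1, had to reach that minimum mainly through Reg4, Spink4, Agr2 and Muc2. Part of the Reg4 and Muc2 differences is thus built into the choice of cells, and its size was not tested. The deep crypt markers Kit, Cd24a and Ramp1, which neither choice used, were also at lower levels in the 53 cells than in the 739.

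**Figure D3:**
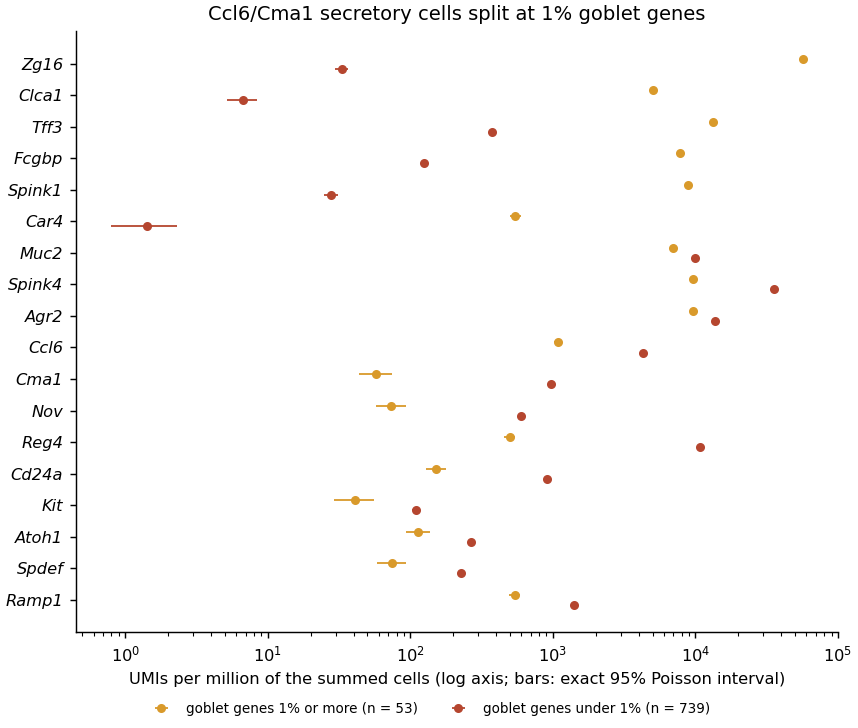
Level of 18 genes in CPM of the summed cells (log axis) in the 53 members with 1% of UMIs or more in 4 goblet genes and in the other 739; bars are exact 95% Poisson intervals. Zg16, Clca1, Tff3, Fcgbp, Spink1 and Car4 lie to the right in the 53 cells and Reg4, Cma1, Nov and Ccl6 to the right in the 739.

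Among the 739, Cma1 and Nov did not run together. Spearman's rho over thinned UMIs in these 739 cells of 1 library was -0.16 for Cma1 with Nov and -0.04 for Ccl6 with Nov. It was 0.35 for Ccl6 with Cma1, 0.40 for Ccl6 with Reg4 and 0.39 for Cma1 with Reg4. With Muc2 it was -0.35 for Cma1 and 0.56 for Nov. Cells share the library and its free RNA, and these values are a description. The highest tercile by Nov (246 cells) had 12892 CPM of Muc2, against 6281 CPM in the lowest tercile (247 cells), and also more of the whey-acidic protein gene Wfdc18 (565 against 186), the sialic acid hydroxylase Cmah (127 against 44.7), the membrane protein Plet1 (693 against 319) and Spdef (274 against 169). It had less Cma1 (687 against 1379 CPM) and less Hsd11b2, the enzyme that inactivates corticosterone (387 against 847). Tff3 was lower too (121 against 899.5 CPM), but it is a gene of the 1% cut and 24 of the 739 cells lie just under that cut; their part in this value was not tested. The Nov terciles also differed in secretory share, of which Muc2 is a part. Its median was 7.95% in the highest and 5.65% in the lowest Nov tercile, and its part in these values was not tested. Between Nov terciles, 10 of 2844 genes (0.352%) were at least 2-fold higher and 20 (0.703%) lower.

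The cells were also ranked by Cma1, and the same cell can be in the highest tercile of both genes. The highest tercile by Cma1 had 13297 CPM of Reg4, against 8364 CPM in the lowest Cma1 tercile, and more of the secretoglobin Scgb2b7 (153 against 20.03 CPM), the immunity-related GTPase Iigp1 (126 against 35.7), Dlk1 (130.3 against 39.5) and the imprinted non-coding RNA Meg3 (160.2 against 39.5). Meg3 was also higher in the highest Nov tercile (101 against 47.1 CPM), and 13 cells held 50% of its UMIs among the members. The highest Cma1 tercile had less Muc2 (7400 against 12103 CPM) and Wfdc18 (245 against 549). Neither Reg4 nor Muc2 reached 2-fold. Among genes at 100 CPM or more, the largest falls were Itln1 (2.18 against 134 CPM), Mptx1 (12.2 against 179), Retnlb (88.5 against 844) and Csrp2 (34.3 against 112). Among the members, 2 cells held 50% of the UMIs of Itln1 and of Retnlb, and 5 cells those of Mptx1. Between Cma1 terciles, 16 of 2828 genes (0.566%) were at least 2-fold higher and 16 (0.566%) lower. Median depth was 12257 UMIs in the highest and 14044 in the lowest Cma1 tercile, and 13196 and 12276 in the highest and lowest Nov terciles. Kit (110 against 109 CPM between Cma1 terciles), Agr2 (12787 against 14314) and Ramp1 (1481 against 1288) stayed within 2-fold.

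Deeper members differed from the rest. The 102 members above 20000 UMIs had 110 CPM of Mki67 and 6261 CPM of Sval1, against 50.2 and 11306 CPM in the 690 at or below that depth. Leaving them out gave 421 higher and 465 lower genes of 3269 against low-share cells, and leaving out the goblet, mitosis and colonocyte ranges instead (698 members kept) gave 396 and 411 of 3251; both alternatives were chosen after seeing the data.

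The bulk libraries of sorted adult cells did not enter the rule, and they were used to see whether genes of the day 8 cells were at other levels in sorted regenerating cells than in stem cells. No day of recovery is listed for the bulk regenerating libraries, so they may not be of day 8. In bulk, fewer cells of a type and less RNA per cell cannot be told apart. The libraries had 13826958 to 30583908 reads assigned to genes, and 28.4 to 51.4% of the table's reads were not unique, with the highest shares in the 2 knockout libraries (51.2 and 51.4%, against 39.1 to 40.2% in wild type). Xist, which only female cells transcribe, had 0.0299 and 0.0322 CPM in regenerating libraries, against 28.5, 0.292 and 18.2 CPM in wild type; the sexes were thus not balanced, and sex was no term in the fits. Levels are CPM on the scale of edgeR's TMM factors, and p-values are two-sided, from edgeR's quasi-likelihood test, adjusted by Benjamini-Hochberg across every gene tested.

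Ccl6, Cma1, Nov and Reg4 were high in both regenerating libraries. Lgr5, whose cells the toxin targets, stood at 1.79 and 7.18 CPM in the regenerating libraries, against 41.9, 53.5 and 27.9 CPM in wild-type stem cells; the groups did not overlap, and the test was not passed (log2 fold change -3.20, adjusted p = 0.125; 0.0465 with a replicate block). Ccl6 stood at 4966 and 5732 CPM in the regenerating libraries, against 398, 203 and 564 CPM in wild-type stem cells (log2 fold change 3.78, SE 0.43, adjusted p = 0.0177). Cma1 stood at 599 and 467 CPM, against 2.20, 5.58 and 9.93 CPM (6.50, SE 0.62, adjusted p = 0.0124). Nov stood at 999.7 and 2259 CPM, against 52.9, 58.7 and 83.0 CPM (4.65, SE 0.40, adjusted p = 0.0124). For each of the 3 genes both regenerating libraries lay above all 3 wild-type libraries. Reg4 stood at 9192 and 14317 CPM, against 342, 344 and 704 CPM, and Spink4 at 10349 and 16303 CPM, against 847, 456 and 1428 CPM; both rose (adjusted p = 0.0124 and 0.0204). Agr2, at 5322 and 8535 CPM against 2278, 1518 and 2343 CPM, rose by 1.76 on the log2 scale (adjusted p = 0.0491), a call that was lost without any 1 of 6 of the 7 adult libraries (all but regenerating replicate 1). Muc2, at 1013 and 3483 CPM against 346, 109 and 479 CPM, did not pass the test (adjusted p = 0.125). The goblet genes that only a few members held did not pass either. Zg16 stood at 711 and 1936 CPM, against 868, 153 and 2020 CPM, and its groups overlapped, as did those of Clca1, at 130 and 2695 CPM against 449, 136 and 1399 CPM (adjusted p = 0.967 and 0.874). The calls of Ccl6, Reg4 and Spink4 were lost without regenerating replicate 2 and without wild-type replicate 1 (highest adjusted p = 0.154, 0.101 and 0.162). That of Cma1 was lost without regenerating replicate 2 (adjusted p = 0.0622) and that of Nov without wild-type replicate 1 (adjusted p = 0.0610).

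**Figure D4:**
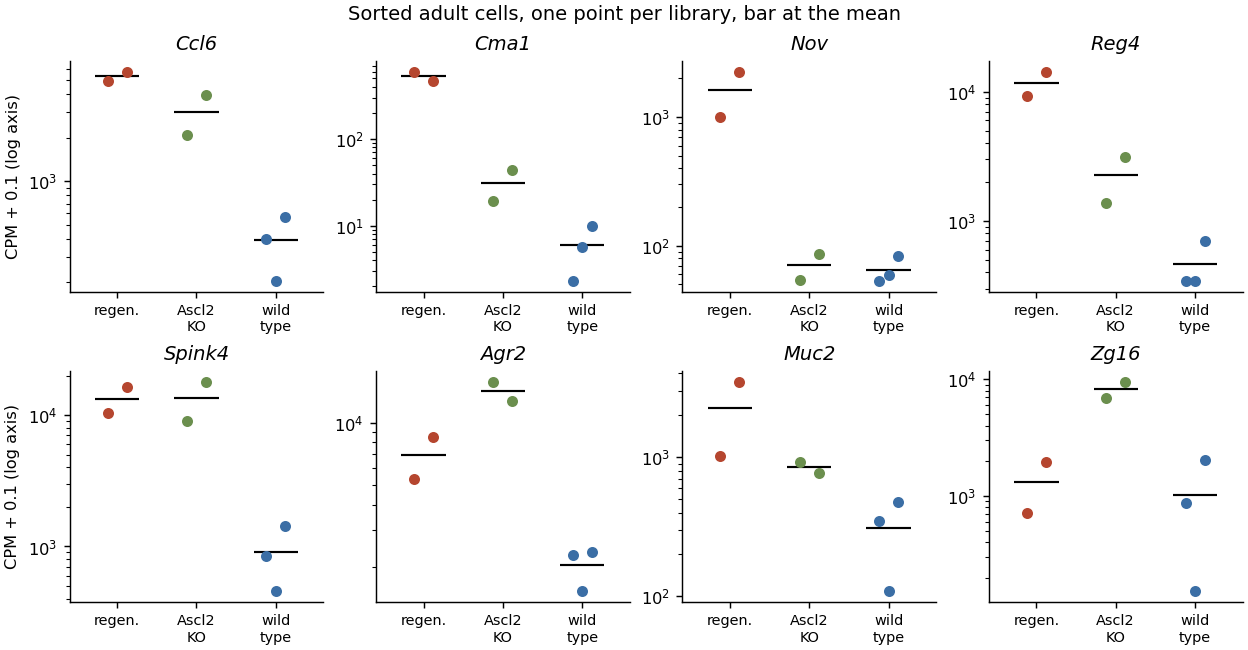
CPM (plus 0.1, log axes that differ between panels) of 8 genes in sorted adult cells, 1 point per library with a bar at the mean: 2 regenerating, 2 Ascl2 knockout and 3 wild-type libraries. Ccl6, Cma1, Reg4 and Spink4 are higher in both regenerating and both knockout libraries than in any wild-type library; Nov is high only in the regenerating libraries plotted, and Zg16 is highest in the knockout libraries.

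The next list was the 50 genes outside the rule with the largest folds in the Ccl6/Cma1 secretory cells among genes at 100 CPM or more there. Of the 50, 17 rose in regenerating cells and none fell, beside 0.302% of 13911 tested genes that rose and 0.0288% that fell; all 50 had a positive fold change, with a median log2 of 2.06 against 0.01 for all tested genes. Both regenerating libraries lay above all wild-type libraries for 44 of the 50, where 17.6% of all tested genes did so. The share of calls rests on few libraries: none of the 50 was called without regenerating replicate 2 or without wild-type replicate 1, 5 without knockout replicate 1 and 3 without knockout replicate 2. With regenerating and wild-type libraries fitted alone 1 was called, and by DESeq2 38. The 5 genes that few members held were not among the 17.

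The named genes of that list included receptors, enzymes and factors. Ramp1 stood at 792 and 831 CPM in the regenerating libraries, against 57.3, 46.8 and 98.1 CPM in wild type (log2 fold change 3.59, adjusted p = 0.0124). Sval1 stood at 4256 and 5777 CPM, against 326, 139 and 566 CPM (3.87, adjusted p = 0.0219), and Spdef at 275 and 585 CPM, against 71.6, 43.0 and 74.1 CPM (2.77, adjusted p = 0.0203). St6galnac1 stood at 68.8 and 59.6 CPM, against 0, 0.555 and 1.16 CPM (adjusted p = 0.0341). Hpd, Plpp1, Ptpro and Hgfac, an activator of hepatocyte growth factor, rose as well. Atoh1 did not pass, at 212 and 229 CPM against 80.5, 34.5 and 77.7 CPM (adjusted p = 0.0809), nor did Kit, at 45.4 and 70.2 CPM against 16.6, 18.3 and 20.4 CPM (adjusted p = 0.191), though neither gene's groups overlapped. Of the 9 deep crypt secretory genes 4 rose, of 16 goblet mucus genes none, and of 13 secretory transcription factors 2. The 4 were Ramp1 and the rule genes Reg4, Spink4 and Agr2 given above. Fold changes were positive for all 9 deep crypt genes (median log2 1.76) and for 15 of the 16 goblet genes (1.16). Among all 13911 tested genes, 7102 were positive. The deep crypt and goblet lists thus differed in calls more than in direction. The 15 genes most reduced in the cells gave 14 tested genes, none of which passed in either direction, with a median log2 of -0.14.

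In Ascl2 knockout stem cells Ccl6, Cma1 and Reg4 rose and Nov did not pass the test. The targeted gene Ascl2 stood at 53.8 and 59.2 CPM in the knockout libraries, against 109.7, 151 and 104 CPM in wild type (log2 fold change -1.11, adjusted p = 0.0115), a call lost without either knockout library; the table does not show where in the gene these reads lie. Of 13911 tested genes 18.8% rose and 17.4% fell against wild type, and of the 50 genes 19 rose and 4 fell, with a median log2 of 0.93. Both knockout libraries lay above all wild-type libraries for 27 of the 50 and below for 8, beside 29.5% and 28.5% of all tested genes. Ccl6 stood at 2084 and 3927 CPM in the knockout libraries, against 398, 203 and 564 CPM in wild type (log2 fold change 2.95, SE 0.42, adjusted p = 7.81e-04). Cma1 stood at 19.2 and 43.3 CPM, against 2.20, 5.58 and 9.93 CPM (2.41, SE 0.54, adjusted p = 0.00806). Nov stood at 54.3 and 86.2 CPM, against 52.9, 58.7 and 83.0 CPM, so its groups overlapped (0.12, SE 0.37, adjusted p = 0.837). Reg4 rose, at 1371 and 3145 CPM (2.28, adjusted p = 0.00356), and so did Spink4 (3.89), Agr2 (2.80), Tff3 (3.48) and Zg16 (3.03, adjusted p = 0.0193). The receptor gene Ramp1 (3.36) and Sval1 (3.88) rose, while Kit (-1.34), Ptpro (-1.96), Hsd11b2 (-0.80) and Ern2 (-0.90), a stress sensor of mucus-secreting epithelium, fell. The calls of Zg16, Kit, Hsd11b2 and Ern2 were each lost without knockout replicate 1 and, apart from Kit, without knockout replicate 2; Cma1 was lost without knockout replicate 2 (adjusted p = 0.0863). Kit was also lost without any 1 of the regenerating or wild-type libraries, Zg16 without wild-type replicate 1, Hsd11b2 without wild-type replicate 3 and Ern2 without wild-type replicates 2 or 3. Spdef and Atoh1, at -0.38 and -0.41, did not pass (adjusted p = 0.437 and 0.381), and of 13 secretory transcription factors 2 rose and 6 fell.

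Scaling and other cells moved with the knockout values. With library size alone in place of TMM factors, the median of all genes stood at -1.001 on the log2 scale, and of the 50 genes 11 rose and 17 fell; Cma1 then missed the threshold (adjusted p = 0.0535) and Zg16 did too (0.0579), while Ccl6, Reg4, Spink4 and Ramp1 passed under both scalings. Of 10 tested stromal genes 7 rose in the knockout libraries, with Col3a1 at 8.15 and 12.6 CPM against 0, 0.263 and 0 CPM, and of 16 tested chemokine genes 11 rose. The part of other cells in these values was not tested. Regenerating and knockout cells were set against the same 3 wild-type libraries.

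In embryonic hindgut Ccl6 and Cma1 appeared late, while some other genes of these cells were present from E11. The E11 libraries had 0 and 0.130 CPM of Ccl6, both E12 libraries had 0, the E14 libraries had 1.001 and 0.788 CPM, and the E16 libraries had 291 and 337 CPM. Cma1 was at 0 in all 4 libraries of E11 and E12, at 0.174 and 0.456 CPM at E14 and at 21.9 and 27.6 CPM at E16. At 3 counts over the E11 libraries as a floor, Cma1 was at least 474-fold higher at E16. Reg4 had another course, with 11.2 and 9.35 CPM in E11 libraries, 3.48 and 8.85 in E12, 1.09 and 0.290 in E14 and 255 and 286 CPM in E16 libraries (log2 fold change of E16 over E11 4.72, adjusted p = 1.07e-04). Nov had 3.42 and 2.05 CPM in E11 libraries, 13.6 and 31.0 in E12, 36.0 and 30.7 in E14 and 23.0 and 26.5 CPM in E16 libraries. Its later libraries all lay above both E11 libraries, and through E14 Ccl6 and Cma1 stayed at 1.001 CPM or less. E16 over E11 passed for Nov too (3.18, adjusted p = 6.87e-04).

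**Figure D5:**
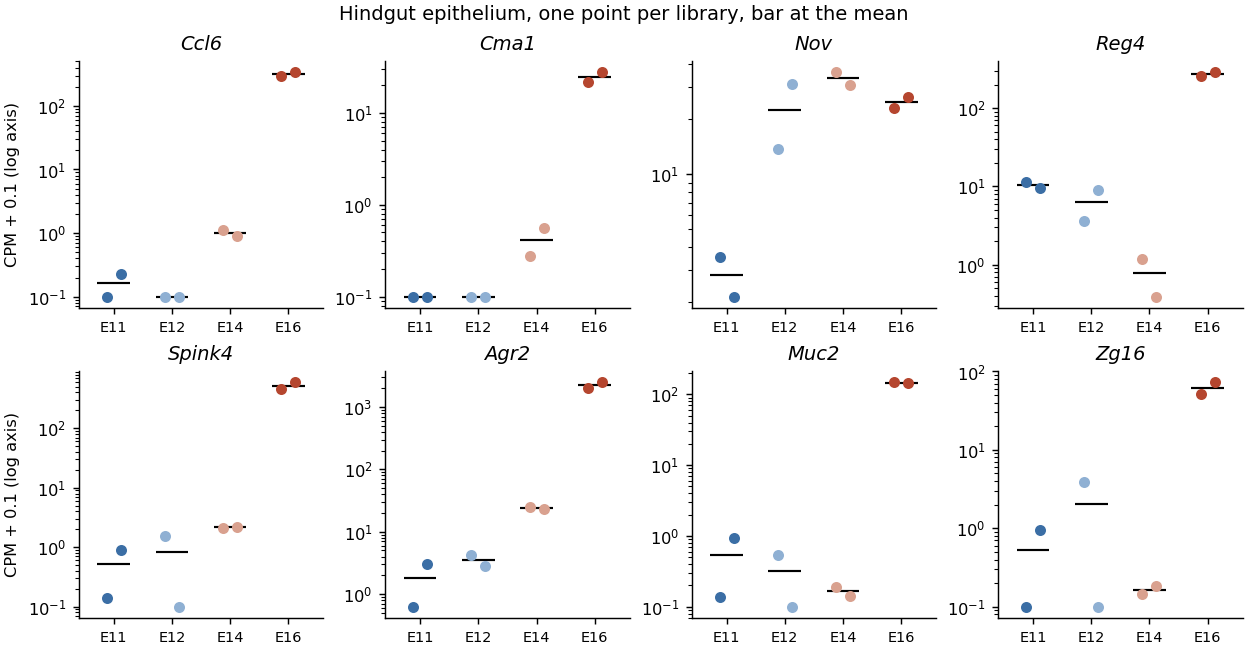
CPM (plus 0.1, log axes that differ between panels) of the same 8 genes in hindgut epithelium at E11, E12, E14 and E16, 1 point per library (2 per age) with a bar at the mean. Of the genes plotted, 7 are far higher at E16 than at any earlier age, and Nov is at its E12 to E16 level from E12 on.

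All 8 genes of the secretory share rose at E16 over E11. Of 16481 tested genes 29.6% rose and 26.2% fell, and of the 50 genes 48 were tested, 45 rose and 1, Hsd11b2, fell (-0.83, adjusted p = 0.0433, at 31.4 and 37.4 CPM at E16 against 75.2 and 46.9 CPM at E11), a call lost without either E14 library, either E16 library or E11 replicate 1. Groups did not overlap for 47 higher genes and 1 lower, beside 41.4% and 36.8% of all tested genes. The median log2 of the 48 was 5.68, also with the 11 that had no count at E11 set to their bound, against 0.05 for all genes. Atoh1 was at 0 CPM at E11 and at 184 and 155 CPM at E16, and Spdef at 233 and 240 CPM at E16, against 4.998 and 3.64 CPM at E11 (5.78, adjusted p = 6.47e-06). Kit had 271 and 242 CPM at E16, against 90.0 and 101 CPM at E11 (1.42, adjusted p = 3.27e-05). St6galnac1 was listed at 0 in all 8 hindgut libraries.

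Immune and stromal genes rose at E16 beside them. Cpa3, a protease that defines mast cells, was at 45.6 and 47.9 CPM at E16 and at 0 at every earlier age, and Ptprc at 95.1 and 117 CPM, against 0 and 0 CPM at E11. Of 10 tested mast cell genes 8 rose, of 15 other immune genes 14 and of 11 stromal genes 10. Cpa3 was at 0 in the day 8 members and in the adult libraries. The E16 libraries held it and other mast cell transcripts together with Cma1, Kit and Ccl6. The part of mast and other non-epithelial cells in the embryonic values was not tested.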

How the data were processed

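The authors deposited a droplet single-cell matrix of UMI counts for the day 8 library and tables of raw read counts per gene for the bulk libraries. Per the submitters' processing notes, STAR 2.5.3a, HTSeq, Cell Ranger 3.0.2 and the build GRCm38 (mm10) were used; the annotation and strand setting are not given in the sources used here. Entries that name no gene (28.4 to 51.4% of reads not unique) stayed out of library sizes and tests. The 3 ChIP libraries were not used. Cells were filtered and chosen as the report states, and no cell was removed as a doublet. Genes needed 50 CPM in the higher group and a 2-fold difference to be counted between cell groups, with no test. A fold against 0 used a floor of 3 counts over the group.

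Bulk counts were fitted with edgeR 4.0.16 (R 4.3.3; TMM, filterByExpr, quasi-likelihood test, Benjamini-Hochberg), with adult and hindgut libraries in separate fits over all their groups, and with a threshold of 0.05. Alternatives were DESeq2 1.42.0, other scaling, no filter, the groups compared alone, a replicate block and leaving out each library. Scripts were tested on simulated data. Single cells were handled in Python 3.11.15 with numpy 2.4.6, scipy 1.17.1 and scanpy 1.11.5. Some listed genes carry older symbols in the tables (Plpp1 as Ppap2a and Clca1 as Clca3, for example) and were matched to them. The bulk row named Clca1 was read as Clca3a1. The members and the 29 gene lists were chosen with earlier results of these data known. Named genes were the genes of the rule, Ascl2, Lgr5, Mki67 and Il11ra1, the 20 largest and 15 smallest folds at 100 CPM or more, and list genes past 2-fold or of highest level; genes outside it (such as Xist, Cpa3 and Col3a1, and those that split the members) were named after their values were seen.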

Additional observations from a re-analysis of the deposited data

How the results depend on the processing

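A secretory share of at least 6% gave 520 members. The number of other cells at 4% or more was 2 with a lower UMI minimum and 5 when Ccl6 and Cma1 had to lead Nov by 3 UMIs. At a minimum of 20 CPM, 586 genes were higher and 688 lower in the members. Without thinning, UMIs of Ccl6, Cma1 and Nov were in 100%, 81.7% and 81.1% of members. Barcodes of 1 to 50 UMIs held 2.08% in the 8 genes. For regenerating over wild-type cells, the main 42 higher, 4 lower and 17 of 50 genes became 244, 128 and 38 by DESeq2, 173, 52 and 38 with no filter, and 6, 0 and 1 with these groups alone; leaving out a library gave 1 to 34, 0 to 6 and 0 to 17. The replicate block gave 40, 7 and 19, and lost the calls of Agr2 (adjusted p = 0.125), Spdef and Plpp1 (0.0602 each) and Dlk1 (0.0861). Correlations of same-numbered deviations between groups were -0.12 to 0.18. Deviations within a group of 2 libraries mirror each other, so these values cannot show whether numbers pair samples. In knockout over wild-type cells, library size alone gave 1233 higher and 5328 lower, with 11 and 17 of the 50; leaving out a library gave 1579 to 2274 lower and 1 to 3 of the 50 lower. In E16 over E11 hindgut, RLE size factors and these groups alone gave 0 of the 50 lower, and leaving out a library 0 to 1. Log2 fold changes that turned sign were, in regenerating cells, Fcgbp (-0.59 to 1.59), Clca1 (-2.40 to 2.27) and Zg16 (-0.56 to 1.37; -0.13 without wild-type replicate 2) as 1 library was left out, the lowest each without regenerating replicate 2. In knockout cells they were Nov (-0.26 to 0.40 as a library was left out; -0.0061 without wild-type replicate 1; -0.85 with library size alone), Fcgbp (-0.38) and Mki67 (-0.046) with library size alone, and Il11ra1 (-0.94 to 0.26; 0.23 without wild-type replicate 2). At E16 it was Lgr5 (-0.19 to 1.13; -0.16 without E16 replicate 1). The cause of these changes was not tested. The single library and the 2 or 3 libraries of each bulk group limit precision.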

Other observations

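Mptx1, a mucosal pentraxin, stood at 17468 and 5280 CPM in the bulk regenerating libraries, 2930 and 8303 CPM in the knockout libraries and 972, 409 and 1448 CPM in wild type, yet at 105 CPM in the summed Ccl6/Cma1 secretory cells, where 26 members had 5 or more of its UMIs. Single-cell and bulk values come from different kits and are set side by side without a test. Of the 54 Chga UMIs in the members, an enteroendocrine marker, 53 were in 1 cell.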
